A study of Homo sapiens with 4 samples.

Results

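NKX2-1, FOXA1, FOXA2, FOXA3, HNF4A, HNF4G, GATA6 and CEBPA are transcription factors that establish the epithelia arising from endoderm, and they were chosen by gene symbol as factors of the lung and of the gut and liver lineages. They make up 8 of the 57905 genes counted and lie on chromosomes 14 (NKX2-1 and FOXA1), 20 (FOXA2 and HNF4A), 19 (FOXA3 and CEBPA), 8 (HNF4G) and 18 (GATA6). The labels give A549, a long-established line grown from a human adenocarcinoma of the lung, as the source of every library, and each of the 4 conditions was sequenced as 1 library. The sc library is labelled as cells carrying a scramble control hairpin, and the shDCBLD2 library from cells carrying a hairpin against DCBLD2, a transmembrane protein of the cell surface; the labels do not say which hairpin. By their labels, the empty vector library and the library labelled DCBLD2 overexpression differ in the DCBLD2 coding sequence, which the vector of the latter should carry. In the study's methods hairpins were delivered in pLV-H1-EF1α-puro, and the overexpression construct was delivered in pLV-EF1-MCS-IRES-Bsd with blasticidin selection. Lentivirus was produced in HEK293T cells and the lines were stable. If each control used the backbone of its own construct, which the methods do not state, sc and the empty vector differ in backbone and selection as well as in insert.

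Library totals lay between 16601633 and 21537283 counts. Levels are given as CPM, the count of a gene relative to the TMM-scaled size of its library, and FPKM, which also divides by gene length, is used where genes are compared with each other. A gene was called higher or lower when its scaled level differed at least 2-fold and the 95% interval of the ratio, which covers counting error only, excluded no change. With 1 library per condition there was no replicate check, so a difference describes 2 libraries and no p-value was computed. In such bulk samples fewer cells of a type and less RNA per cell cannot be told apart.

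DCBLD2 itself was at 504 CPM in sc and 197 CPM in shDCBLD2, a log2 ratio of -1.35 (95% counting interval -1.40 to -1.30). In the empty vector library it was at 434 CPM, and under the overexpression label at 242 CPM, a log2 ratio of -0.84 (-0.90 to -0.79), which goes against that label. The library labelled overexpression also stood apart in other genes. There 66 genes reached 50 counts while staying at or under 3 counts in the remaining libraries, and the same search gave 0 genes for sc, 0 for shDCBLD2 and 0 for the empty vector. CDKN2A, which lies in a region of chromosome 9 known to be deleted in A549, had 2104 counts there and 0 in sc, shDCBLD2 and the empty vector. Every comparison with the library labelled overexpression rests on this 1 library and cannot be given without it. Whether its label, cell line or RNA was exchanged was not tested, so its ratios compare that library with a control and cannot be read as the effect of DCBLD2 overexpression in A549.

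NKX2-1 directs the lung and thyroid buds of the foregut and maintains alveolar cells, in which it activates the surfactant genes. FOXA1, FOXA2 and FOXA3 are forkhead pioneer factors that open chromatin for other factors. HNF4A and its relative HNF4G are nuclear receptors of hepatocytes and of the intestinal epithelium. GATA6 is a zinc finger factor of early endoderm, and CEBPA is a leucine zipper factor of hepatocytes, myeloid cells and the lung epithelium.

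The sequences before the start sites of HNF4A and NKX2-1 are shown because HNF4A was the lineage factor called different between the control libraries and NKX2-1 is the lung factor. Each is the 250 bases before a RefSeq start (GRCh38.p14), on the strand of the gene. Capitals mark matches to 1 of 5 motifs searched on both strands: the letters TGTTTAC for the forkhead family, the letters CAAAGTC for HNF4 receptors, the letters TCAAGTG for the NKX2-1 homeodomain, the letters AGATAA for the GATA family, and the letters TTGCGCA for the C/EBP family. A match on the other strand is shown as its reverse complement. No matches overlapped in the windows shown. The upstream start of HNF4A is preceded by chr20:44355449-44355698 (plus strand) and the downstream start by chr20:44400989-44401238 (plus strand). The NKX2-1 window is chr14:36519557-36519806 (minus strand).
HNF4A upstream start: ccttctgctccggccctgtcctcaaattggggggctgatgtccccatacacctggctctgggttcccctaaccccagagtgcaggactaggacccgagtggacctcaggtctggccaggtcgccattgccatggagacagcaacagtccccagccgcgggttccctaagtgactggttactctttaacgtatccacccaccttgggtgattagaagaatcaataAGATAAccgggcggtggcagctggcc
HNF4A downstream start: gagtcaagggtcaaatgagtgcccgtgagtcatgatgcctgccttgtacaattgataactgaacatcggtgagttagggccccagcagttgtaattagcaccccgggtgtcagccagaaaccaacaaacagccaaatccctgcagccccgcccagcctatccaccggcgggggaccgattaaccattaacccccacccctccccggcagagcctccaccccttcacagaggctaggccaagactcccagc
NKX2-1: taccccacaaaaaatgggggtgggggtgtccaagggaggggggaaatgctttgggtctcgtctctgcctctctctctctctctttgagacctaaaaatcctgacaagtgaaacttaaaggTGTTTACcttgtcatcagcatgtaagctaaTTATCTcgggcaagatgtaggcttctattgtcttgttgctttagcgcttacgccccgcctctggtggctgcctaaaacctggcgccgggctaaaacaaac

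The upstream HNF4A window held a GATA match at position -26 from the start, and the downstream window held no match. The NKX2-1 window held a forkhead match (FOXA motif) at -130 and a GATA match at -100, and the window before its other start held no match. Among all 35116 promoter windows of this length, 2.98% held the FOXA motif and 9.17% the GATA motif. The other motifs were rarer, at 2.91% for HNF4, 2.06% for NKX2-1 and 1.62% for C/EBP, and none of them was in the 8 windows of the 6 lineage factors with an entry. A match is a description of letters and not a binding site.

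NKX2-1 (ENSG00000136352) had 0 counts in sc, 0 in shDCBLD2, 0 for the empty vector and 7 in labelled overexpression, where its level was 0.424 CPM. A count of 0 allows up to 0.153 CPM in sc, 0.139 CPM in shDCBLD2 and 0.163 CPM with the empty vector, taking 3 counts per library as the limit. The lower 95% counting limit of its log2 ratio was 0.77 for labelled overexpression against sc and 0.68 against the empty vector, and with 0 counts in the controls there was no upper limit. The gene failed the filter of a mean of 1 CPM over the 4 libraries and entered no count of changed genes.

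The products of lung epithelium were sparse as well. Of 19 genes on a list of alveolar and airway products, 4 passed the filter and 8 had at most 3 counts in every library. SFTPC, a surfactant protein of alveolar type II cells, had 11, 3, 6 and 2 counts in sc, shDCBLD2, empty vector and labelled overexpression. SFTPA1, another surfactant protein, had 0 counts in all 4 libraries. NAPSA, a protease that processes surfactant protein, had 13, 23, 17 and 13 counts. Other sparse products had most counts in labelled overexpression. HOPX had 1, 0, 0 and 12 counts and LAMP3 had 3, 0, 0 and 7. SLC34A2 had 2, 0, 0 and 7 counts and SFTPD had 3, 3, 3 and 8. SFTPB, with 0, 6, 1 and 4 counts, did not share this order. More than 3 counts were reached by 10 of the 19 genes in labelled overexpression and by 6 in each other library. ABCA3 and LPCAT1 were the exceptions to this sparseness. ABCA3, the lipid transporter of lamellar bodies, had 1926, 1797, 1851 and 2495 counts. LPCAT1, an enzyme of surfactant lipid synthesis, had 2984, 3770, 1973 and 2364 counts. The 4 genes that passed (ABCA3, LPCAT1, MUC1 and AGER) gave 0 calls in each of the 3 comparisons. The widest ratios were 0.58 (0.50 to 0.67) for ABCA3 in labelled overexpression against the empty vector and -0.50 (-0.59 to -0.42) for LPCAT1 in the empty vector against sc. Among all genes tested, 11.8% were called for labelled overexpression against its vector control. The share was 6.78% for the hairpin library against its scramble control and 4.11% between the 2 control libraries. With only 4 genes, 0 calls does not set the lung products apart from these shares.

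Levels of the forkhead factors were unequal, and FOXA2 dominated in each library. Mean FPKM over the 4 libraries put the lineage factors in the order FOXA2 (22.5), HNF4A (8.67), FOXA1 (3.37), FOXA3 (2.69), CEBPA (1.93), GATA6 (1.55), HNF4G (0.173) and NKX2-1 (0.0325). The ranges over libraries overlapped for FOXA1, FOXA3, CEBPA and GATA6, and the lowest level of HNF4A (4.92) lay below the highest of FOXA1 (5.70). FOXA2 lay above the other factors in each library. By FPKM, FOXA2 (ENSG00000125798) was at 22.14 in sc, 21.87 in shDCBLD2, 27.42 in the empty vector library and 18.56 in labelled overexpression. FOXA1 (ENSG00000129514) was at 3.02, 2.02, 2.75 and 5.70 FPKM in the same order. FOXA3 (ENSG00000170608) was at 2.20, 1.06, 3.0 and 4.51 FPKM. FOXA2 made up 80.9% of the summed FPKM of the 3 genes in sc, 87.7% in shDCBLD2, 82.7% in the empty vector library and 64.5% in labelled overexpression. The share of FOXA1 was 19.8% in labelled overexpression and lower in the others, with 8.10% in shDCBLD2 and 8.29% in the empty vector library, and that of FOXA3 was 15.7% and between 4.25% and 9.04%.

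FOXA1 had 237 counts in sc, 179 in shDCBLD2, 212 in the empty vector library and 389 in labelled overexpression. Its level was highest in labelled overexpression and lowest in shDCBLD2, while sc and the empty vector, at 12.1 and 11.5 CPM, did not differ beyond their counting intervals. The log2 ratio was 1.02 (0.78 to 1.28) for labelled overexpression against the empty vector, where FOXA1 was called higher, and 0.95 (0.72 to 1.20) against sc. For shDCBLD2 it was -0.54 (-0.83 to -0.26) against sc, short of the 2-fold call. TTC6, the gene that overlaps FOXA1 on the opposite strand, had at most 10 counts in any library.

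FOXA2 had 1101 counts in sc, 1226 in shDCBLD2, 1336 in the empty vector library and 802 in labelled overexpression. It was the steadiest of the 6 factors that passed the filter, with less than 2-fold between its highest and lowest level, and sc and shDCBLD2 were level at 56.3 and 56.8 CPM. Its log2 ratio was -0.58 (-0.71 to -0.46) for labelled overexpression against the empty vector, the opposite sign to FOXA1 and FOXA3, and -0.21 against sc. No 2-fold call was made for FOXA2. LINC00261, the noncoding RNA gene beside FOXA2, had 57, 62, 79 and 12 counts and was called lower in labelled overexpression against the empty vector, with a log2 ratio of -2.41 (-3.58 to -1.68). The ratio of LINC00261 for shDCBLD2 against sc was -0.02 (-0.56 to 0.53).

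FOXA3 had 92 counts in sc, 50 in shDCBLD2, 123 in the empty vector library and 164 in labelled overexpression. It was lowest in shDCBLD2, at 2.32 CPM, and highest in labelled overexpression, at 9.94 CPM. The log2 ratio was 0.56 (0.22 to 0.92) for labelled overexpression against the empty vector and 1.06 against sc, where it reached the 2-fold call. For shDCBLD2 the log2 ratio was -0.99 (-1.55 to -0.51) against sc, just short of the call, and -1.49 against the empty vector, past it. The calls for FOXA3 thus depended on which control was used.

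HNF4A (ENSG00000101076) had 1467 counts in sc, 655 in shDCBLD2, 512 in the empty vector library and 967 in labelled overexpression. Its levels fell into 2 high libraries, sc and labelled overexpression, and 2 low ones, shDCBLD2 and the empty vector. At 30.4 and 27.9 CPM the low libraries did not differ beyond counting error, with a log2 ratio of 0.12 (-0.05 to 0.29). The empty vector library was lower than sc as well, with a log2 ratio of -1.42 (-1.57 to -1.28), although by the labels neither control carries a DCBLD2 construct. By FPKM, HNF4A was at 13.81, 5.47, 4.92 and 10.48.

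Against its own control, the log2 ratio of HNF4A was 1.07 (0.91 to 1.23) for labelled overexpression and -1.30 (-1.44 to -1.17) for shDCBLD2, both past the 2-fold call. Against the other control the signs were the opposite, at -0.36 (-0.47 to -0.24) for labelled overexpression against sc and 0.12 for shDCBLD2 against the empty vector. Whether HNF4A differed with DCBLD2 therefore cannot be told apart from the difference between the control libraries. HNF4G (ENSG00000164749) had 16, 11, 12 and 22 counts and failed the filter. Its log2 ratio was 0.92 (-0.05 to 2.18) for labelled overexpression against the empty vector, so no difference was detectable at this depth. HNF4A-AS1, the antisense gene at HNF4A, had at most 1 count in a library, and none of the 4 genes overlapping HNF4A had more than 2.

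GATA6 (ENSG00000141448) had 83 counts in sc, 97 in shDCBLD2, 75 in the empty vector library and 193 in labelled overexpression. Only the last library stood out, and the other 3 lay between 4.09 and 4.50 CPM, within their counting intervals. The log2 ratio was 1.49 (1.12 to 1.92) for labelled overexpression against the empty vector and 1.44 against sc. For shDCBLD2 against sc it was 0.08 (-0.35 to 0.52), an interval that covers no change. GATA4, the relative that acts with GATA6 in endoderm, had 84, 107, 106 and 199 counts, with a log2 ratio of 1.05 (0.71 to 1.42) for labelled overexpression against the empty vector and 0.20 (-0.22 to 0.64) for shDCBLD2 against sc.

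CEBPA (ENSG00000245848) had 90 counts in sc, 51 in shDCBLD2, 110 in the empty vector library and 122 in labelled overexpression. The shDCBLD2 library was lowest, at 2.36 CPM, with an interval of 1.76 to 3.11 CPM that lay below that of sc, 3.70 to 5.65 CPM, and the intervals of the empty vector and labelled overexpression overlapped. The log2 ratio was -0.93 (-1.49 to -0.45) for shDCBLD2 against sc, short of the call, and -1.30 against the empty vector, past it. For labelled overexpression against the empty vector it was 0.30 (-0.08 to 0.69). CEBPD, a family member induced in inflammation, had 1201, 556, 1681 and 1593 counts and was called lower in shDCBLD2 against sc, at -1.25 (-1.40 to -1.11). CEBPB, a further family member of liver and fat cells, had 2296, 2230, 4091 and 2247 counts and a log2 ratio of -0.18 (-0.27 to -0.10) in that comparison.

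Over the lineage factors, 6 of 8 passed the filter, and each of these had at least 2.32 CPM in every library. In labelled overexpression against the empty vector 3 of them (FOXA1, HNF4A and GATA6) were called higher and 0 lower, where 11.8% of the 13966 genes tested were called, 6.42% higher and 5.35% lower. The median log2 ratio of the 6 was 0.79, beside -0.04 over all genes tested. In shDCBLD2 against sc 1 factor, HNF4A, was called lower and 0 higher, where 6.78% of genes were called, 1.16% higher and 5.62% lower. The median was -0.74, beside 0.01 over all genes. In the empty vector against sc HNF4A alone was called, lower, where 4.11% of genes were called, 2.22% higher and 1.89% lower. These comparisons share control libraries, so they are only set side by side. With the controls exchanged, 2 of the 6 factors (FOXA3 and GATA6) were called higher in labelled overexpression against sc, where 17.1% of genes were called, 8.08% higher and 8.98% lower. In shDCBLD2 against the empty vector 2 (FOXA3 and CEBPA) were called lower, where 10.2% were called, 2.23% higher and 8.01% lower.

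Of 32 other factors of endoderm and its epithelia, 21 passed the filter and 18 of these had at least 1 CPM in every library. In labelled overexpression against the empty vector 3 were called higher (CDX2, EHF and GATA4) and 1 lower (NR5A2), with a median log2 ratio of 0.08. Among the 18 that were above 1 CPM throughout the calls were 2 higher and 1 lower. CDX2, the factor that specifies intestine, had 16, 4, 21 and 247 counts, a log2 ratio of 3.59 (3.07 to 4.43), and passed the filter through the library where it was high. NR5A2, a nuclear receptor of liver and pancreas, had 509, 530, 432 and 187 counts, a log2 ratio of -1.05 (-1.31 to -0.80). In shDCBLD2 against sc 7 were called lower and 0 higher, with a median of -0.22, and 5 of the 18 were called lower. They included SOX2, a factor of foregut and airway, with a log2 ratio of -1.21 (-1.70 to -0.80), EHF, an epithelial ETS factor, at -1.64 (-2.19 to -1.20), and the related ELF3 at -1.02 (-1.11 to -0.94). In the empty vector against sc 2 were called lower (ONECUT2 and EHF) and 1 higher (NKX2-8), or 2 lower and 0 higher among the 18. Of all genes tested, 11.8%, 6.78% and 4.11% were called in these comparisons, in the same order. NKX2-8, a homeodomain factor gene beside NKX2-1, had 19, 19, 49 and 41 counts. It was 1 of 8 antisense and neighbouring genes of the lineage factors, of which 4 passed the filter; beside it, LINC00261 was the other called in these comparisons. The 2 neighbours that were above 1 CPM throughout gave 0 calls.

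Several liver products had the split of HNF4A. Of 30 hepatocyte genes 11 passed the filter, 14 had at most 3 counts in every library, and ALB had 1, 0, 0 and 0 counts. In labelled overexpression against the empty vector 7 of the 11 were called higher and 0 lower, with a median of 1.88. In shDCBLD2 against sc 8 were called lower and 0 higher, with a median of -1.78. In the empty vector against sc 6 were called lower and 0 higher, with a median of -1.15. The shares of all genes tested that were called were 11.8%, 6.78% and 4.11%, in the same order. One of the 11, SERPINA1, the liver antiprotease, had under 1 CPM in a library and so passed through its high libraries; without it the calls were 6 higher, 7 lower and 5 lower. With no filter, all 30 genes had a median of 0.21 in the first comparison, -0.62 in shDCBLD2 against sc and 0 between the controls, where a gene without counts in both libraries enters as no difference.

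FGA, a fibrinogen chain, had 317, 51, 119 and 1305 counts. Its log2 ratio was 3.59 (3.34 to 3.89) for labelled overexpression against the empty vector, -2.72 (-3.23 to -2.35) for shDCBLD2 against sc and -1.31 (-1.64 to -1.01) for the empty vector against sc. The other fibrinogen chains were also highest in labelled overexpression and next highest in sc, with 252, 55, 61 and 791 counts for FGB and 168, 69, 58 and 668 for FGG. TM4SF4, a membrane protein of liver and intestine, had 1180, 267, 269 and 1504 counts and a log2 ratio of -2.03 (-2.24 to -1.85) for the empty vector against sc. RBP4, the plasma carrier of retinol, had 161, 32, 67 and 227 counts. Other genes of the list that passed the filter did not have this split. CPS1 had 2113, 1277, 1502 and 1146 counts and was lower in labelled overexpression (69.4 CPM) than in the empty vector (81.8 CPM). AMBP had 184, 89, 190 and 216 counts and APOM had 36, 24, 45 and 41. Neither was lower in CPM with the empty vector than in sc.

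Several products of stomach and intestine had the split of HNF4A too. Of 25 genes 8 passed the filter, and 4 of these had at least 1 CPM in every library. In labelled overexpression against the empty vector 8 of 8 were called higher, with a median of 1.84, and 4 of the 4 that were above 1 CPM throughout. In shDCBLD2 against sc 7 were called lower and 1 higher, with a median of -1.93. In the empty vector against sc 6 were called lower and 0 higher, with a median of -2.16. The shares of all genes tested that were called were 11.8%, 6.78% and 4.11%, in the same order. Of the 4 above 1 CPM throughout, 4 were called lower in shDCBLD2 against sc and 3 in the empty vector against sc, with 0 higher in either; VIL1, CDH17, CEACAM5 and TFF1 had passed through their high libraries. Over all 25 genes the medians were 0.05, -0.07 and -0.19. CLDN2, a tight junction protein that forms cation pores, had 7973, 2877, 2660 and 8058 counts. CDH17, the liver and intestine cadherin, had 149, 23, 18 and 266 counts. CEACAM6, an adhesion molecule of the gut surface, had 2138, 982, 80 and 1598 counts and so was far lower with the empty vector than in shDCBLD2. The 1 gene called higher in shDCBLD2 was TFF1, a secreted trefoil peptide of the stomach, with 10, 63, 8 and 29 counts.

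**Figure D1:**
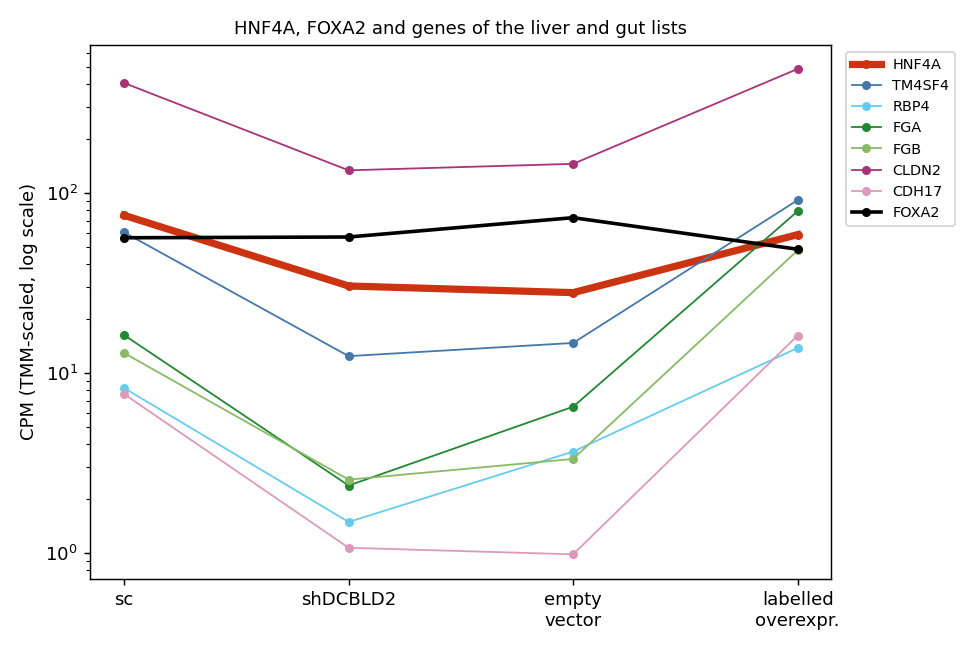
CPM (TMM-scaled, log axis) of HNF4A, FOXA2 and 6 genes of the liver and gut lists in the 4 libraries; lines join the values of a gene and do not mark an order of conditions. HNF4A and the 6 products were lower in shDCBLD2 and the empty vector than in sc and labelled overexpression. FOXA2 was highest with the empty vector, at 72.8 CPM. The 6 do not stand for their whole lists. Not shown are CPS1, at 69.4 CPM in labelled overexpression and 81.8 in the empty vector, and TFF1, highest in shDCBLD2 at 2.92 CPM. AMBP, also not shown, was at 10.4 CPM in the empty vector and 9.41 in sc.

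The summed level of the liver list was 240 CPM in sc, 92.5 in shDCBLD2, 139 in the empty vector library and 385 in labelled overexpression. That of the gut list was 661, 215, 217 and 784 CPM. Single genes weighed heavily in these sums. In the same order, CPS1 alone was at 108, 59.2, 81.8 and 69.4 CPM on the liver list. CLDN2 alone was at 408, 133, 145 and 488 CPM on the gut list. Both sums were lowest in shDCBLD2 and highest in labelled overexpression, and HNF4A was lowest with the empty vector. The HNF4 motif was in 1 of 27 promoter windows of the liver list, 2 of 22 of the gut list and 0 of 22 of the lung list. The liver window was that of AHSG, which had 6, 1, 7 and 16 counts and failed the filter. The gut windows were those of GPA33, with 0 counts in every library, and MUC13.

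Of 16 cofactors and regulators of these factors 14 passed the filter. PPARGC1A, a coactivator of HNF4A in the fasting liver, had 102, 22, 9 and 23 counts, with a log2 ratio of -2.24 (-3.09 to -1.68) for shDCBLD2 against sc and -3.16 (-4.58 to -2.43) for the empty vector against sc. TLE2 and TLE3, Groucho corepressors that bind forkhead factors, were called higher in labelled overexpression against the empty vector, at 1.17 (0.99 to 1.37) and 1.02 (0.87 to 1.18). EP300, a histone acetyltransferase, was called lower in the empty vector against sc, at -1.08 (-1.22 to -0.94). In all, 3 cofactors were called higher in labelled overexpression against the empty vector. In shDCBLD2 against sc 1 was called lower, and in the empty vector against sc 2 were called lower. Of all genes tested, 11.8%, 6.78% and 4.11% were called in these comparisons, in the same order. PPARGC1A, at 0.490 CPM with the empty vector, passed the filter through sc, and among the 13 cofactors above 1 CPM throughout the counts were 2, 0 and 1.

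Likeness of profile was measured as the Euclidean distance between log2 CPM values centred over the 4 libraries. The genes closest to HNF4A were PAX8-AS1 at 0.198, TFCP2L1 at 0.199 and SLC12A2 at 0.205, beside a median distance of 1.39 over all genes. The genes closest to GATA6 were NRGN, LOX and MARCKSL1, and GATA4 was number 51 of 13965 genes, at 0.377. SLC25A29 and HSD17B6 were among the 3 closest to FOXA1. The closest were YPEL1, EML2 and PBXIP1 to FOXA3, and C19orf81, PPP1R3F and VPS37D to CEBPA. FOXA3 and CEBPA lay 0.346 apart, whereas FOXA2 was at least 1.29 from each other factor that passed the filter. With 4 libraries such distances are descriptions.

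Some markers of cell types were lower in shDCBLD2 than in sc and higher in labelled overexpression than in the empty vector, and others were not. The summed level of 6 epithelial markers was 17547 CPM in sc, 12573 in shDCBLD2, 14842 in the empty vector library and 19220 in labelled overexpression. CDH1, the epithelial cadherin, had 1050, 220, 832 and 1103 counts, and KRT19, an epithelial keratin, had 1228, 614, 1163 and 3028. KRT7, another keratin, had a different order, at 4051 CPM in sc, 4938 in shDCBLD2, 5276 in the empty vector library and 4522 in labelled overexpression. In all 2 of the 6 were called higher in labelled overexpression against the empty vector. In shDCBLD2 against sc 3 were called lower, and in the empty vector against sc 0 were called. The shares of all genes tested were 11.8%, 6.78% and 4.11%. The 10 fibroblast markers summed to 39.2, 60.5, 46.1 and 86.3 CPM, with FAP at 0 counts in each library and COL1A2 at 17, 1, 0 and 67 counts, and 3 of the 5 that passed the filter were called higher in labelled overexpression against the empty vector, but 1 of the 3 above 1 CPM throughout. The 10 markers of HEK293, the parent of the packaging cells, summed to 303, 423, 237 and 261 CPM, with STMN2 and SYT4 at 0 throughout and NEFM at 1, 4, 0 and 221 counts, and 3 of the 8 that passed were called higher in that comparison, or 2 of the 6 above 1 CPM throughout. PEG10, which made up most of that sum in sc, shDCBLD2 and the empty vector, was lowest in labelled overexpression, at 218, 345, 139 and 81.2 CPM, as were MEIS2 and TSPYL5. PCSK1N was highest in labelled overexpression, at 39.7, 35.8, 58.4 and 114 CPM, as were NEFL, LIN28B and PAX2. For labelled overexpression against sc, 5 of the 8 were called higher and 1 lower. Of the 6 above 1 CPM throughout, 3 were higher and 1 lower. Over all genes tested 8.08% were called higher and 8.98% lower. The 8 blood markers summed to between 5.15 and 24.2 CPM, with PTPRC at 0 throughout. Of the 2 that passed, 0 were called in labelled overexpression against the empty vector. MTAP and CDKN2B, neighbours of CDKN2A, had 9, 33, 11 and 104 and 0, 0, 0 and 7 counts. The part of these markers in the differences of the lineage factors was not tested.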

How the data were processed

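RNA sequencing of poly(A) libraries labelled as A549 cells gave 4 libraries, 1 per condition. The authors deposited raw read counts per gene for 57905 genes, and FPKM values that they made from the counts, the exonic gene size and the library total. The aligner, counting program, annotation and use of strand are not given in the sources used here. The submitters' processing notes name only mm9, a mouse build, although the identifiers are human; deposited gene coordinates were used only to find overlapping genes.

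Scaling factors were computed by TMM (edgeR 4.0.16, R 4.3.3). Log2 ratios used a prior count of 2 and an exact Clopper-Pearson 95% interval on the share of the 2 counts. Genes with a mean of at least 1 CPM (13966) entered the calls of a 2-fold difference. Library totals differed by at most 1.30-fold. Without molecular identifiers reads are not independent molecules, so intervals cover counting error only. Alternatives were DESeq2 1.42.0 size factors, library totals, prior counts of 0.5 and 5, equal depth, 1.5-fold, other filters and the other control. Promoter sequences were from RefSeq (GRCh38.p14), with an entry for 6 of the 8 genes.

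The genes and lists were chosen with earlier results of these data known. Named genes were the 8 factors, called list genes, the 3 highest and lowest ratios and the 3 highest FPKM per list. The 3 closest profiles were named too. Single lung and marker genes and genes with a motif match outside that rule were named after their values were seen. Some genes are not reported here.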

Additional observations from a re-analysis of the deposited data

How the results depend on the processing

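No paired analysis was possible because each condition was 1 library. Of 125 log2 ratios of the lineage factors under alternatives, 120 stayed within the counting interval of the reported ratio and 3 lay outside it. The remaining 2 were of a called factor and changed sign. Both were of HNF4A with the other control library, at -0.36 for labelled overexpression and 0.12 for shDCBLD2. The 3 outside the interval also came from the other control library, where 10 ratios stayed within it. With DESeq2 size factors, library totals, either prior count or equal depth, all 22 ratios of each setting stayed within it. Those settings reuse the counts of the same libraries, so they could move a ratio little and do not show that it would repeat. Some ratios near 0 of factors without a call changed sign too, and these are not counted as sign changes here. FOXA2 in shDCBLD2 against sc went from 0.01 to -0.02 with library totals and to -0.36 with the other control. GATA6 in the empty vector against sc went from -0.05 to 0.04 at equal depth. The count of factors called in shDCBLD2 against sc was 1 as reported, 2 with library totals or a prior count of 0.5 (adding FOXA3), and 3 at 1.5-fold (adding FOXA3 and CEBPA). The count in labelled overexpression against the empty vector was 3 as reported and 4 without the filter, which admitted NKX2-1. Drawing counts down to the smallest library total gave the reported counts in 1 draw, but a second draw called 3 factors in shDCBLD2 against sc, so the draw was repeated 100 times, an alternative chosen after seeing the data. For shDCBLD2 against sc 52 draws called 1 factor, 35 called 2 and 13 called 3. For labelled overexpression against the empty vector 69 draws called 3 factors, 30 called 2 and 1 called 1, and for the empty vector against sc 100 of 100 draws called 1.

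Without the expression filter, 9 of 32 other endoderm factors in place of 4 of 21 were called in labelled overexpression against the empty vector. Lung products called there were 3 of 19 in place of 0 of 4. In shDCBLD2 against sc 2 of 19 lung products were called in place of 0 of 4, and 2 of 16 cofactors in place of 1 of 14. The share of all genes called was not computed for these other filters. With a mean of at least 5 CPM, 16 other endoderm factors were admitted in place of 21. Of these, 2 in place of 4 were called in labelled overexpression against the empty vector. In shDCBLD2 against sc 3 were called in place of 7, and in the empty vector against sc 0 in place of 3. That filter admitted 13 cofactors in place of 14, with 0 called in place of 1 in shDCBLD2 against sc. In the empty vector against sc 1 was called in place of 2. The medians of the liver and gut lists in labelled overexpression against the empty vector were 1.88 and 1.84 as reported, 0.21 and 0.05 without the filter, and 2.26 and 2.83 at 5 CPM. For shDCBLD2 against sc they were -0.62 and -0.07 without the filter in place of -1.78 and -1.93, and for the empty vector against sc 0 and -0.19 in place of -1.15 and -2.16. In these settings the number of genes admitted differed by construction. FPKM and CPM gave the same order of libraries for each lineage factor except FOXA2, whose sc and shDCBLD2 levels changed places. Counts under about 20, as for HNF4G and NKX2-1, limit what the depth can show.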
